A study of Mus musculus with 12 samples.

Results

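The 10 genes described here, Acss2, Ankrd50, Cyp4f18, Arhgap31, Creb3l2, P4ha1, Ano6, Fam32a, Ylpm1 and Diap3, hold or lie nearest to a variably methylated intracisternal A particle (VM-IAP), and the study names no transcript that begins or ends in these elements. They are 10 of 41128 genes in the table and belong to 103 genes that the study places at VM-IAPs. The genes were chosen by DNA methylation of the elements and by transcripts that the study assembled from these same libraries, so the lack of an initiating or terminating transcript is not a finding here. RNA was sequenced from spleen cells of C57BL/6J mice of 6 to 8 weeks in 12 libraries, with 3 each of female resting B cells, male resting B cells, female naive T cells and male naive T cells. The resting B cells lacked the surface protein CD43, and the naive T cells carried CD4 and were gated as CD62L high, CD44 low and CD25 negative. All mice were inbred and untreated as far as the labels say, no group carries a transgene or a deletion, and RNA came from 1000000 cells of pooled mice, so libraries of a group differ as pools and not as single animals. The values are adjusted TPM (a share of transcripts that corrects for gene length, after an adjustment that is not described), and the table gives each a lower and an upper bound.

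IAPs are endogenous retroviruses that are active in mice, and most copies are silenced by DNA methylation of their long terminal repeats (LTRs). At a few copies the LTR is methylated to a different degree in genetically identical mice, and where such an LTR acts as a promoter the level of the neighbouring gene can follow its methylation, as at the agouti viable yellow and Axin fused alleles. The 10 genes stand for the other situation, a variable element in or near a gene for which no transcript from the element was named. Placed on the GENCODE M21 annotation of GRCm38, the elements of Acss2 and Ylpm1 lay in an intron of the gene, those of Ankrd50, Cyp4f18, Arhgap31, Creb3l2 and Ano6 lay upstream of it, and those of P4ha1, Fam32a and Diap3 lay downstream. The elements of Cyp4f18, Arhgap31, P4ha1 and Fam32a kept internal retroviral sequence between their LTRs, and the others were solo LTRs. At Arhgap31, Creb3l2, P4ha1 and Fam32a the study notes an unannotated transcript over the element. Methylation was not analysed here.

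The promoters of 4 of the genes are shown because these carry the largest differences between the cell types (Cyp4f18 and Acss2) and the widest spread between libraries of a group at the deposited scale (P4ha1 and Ylpm1). They come from RefSeq (GRCm38.p6), run from 250 bases before to 50 after the start, and are written 5′ to 3′ on the strand of the gene. Capitals mark matches on either strand to the CCAAT box, to GGGCGG of the GC box, to CGGAAG as in ETS factor sites, to TGACGT as in cyclic AMP response elements, to TATAAA of the TATA box, and to GCATGCG as in NRF1 sites.
Cyp4f18, chr8:72009577-72009876, minus strand: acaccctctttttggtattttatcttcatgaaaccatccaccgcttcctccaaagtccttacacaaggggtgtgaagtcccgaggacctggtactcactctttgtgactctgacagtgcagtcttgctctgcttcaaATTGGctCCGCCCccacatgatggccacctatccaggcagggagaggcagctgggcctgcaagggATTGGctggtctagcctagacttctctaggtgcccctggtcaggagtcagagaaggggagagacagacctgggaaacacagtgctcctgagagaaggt
Acss2, chr2:155517793-155518092, plus strand: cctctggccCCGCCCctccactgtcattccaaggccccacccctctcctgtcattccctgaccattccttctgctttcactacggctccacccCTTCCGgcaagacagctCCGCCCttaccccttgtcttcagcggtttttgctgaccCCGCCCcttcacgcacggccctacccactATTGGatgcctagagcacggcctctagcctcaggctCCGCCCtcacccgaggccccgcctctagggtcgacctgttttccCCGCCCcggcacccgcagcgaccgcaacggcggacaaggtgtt
P4ha1, chr10:59323046-59323345, plus strand: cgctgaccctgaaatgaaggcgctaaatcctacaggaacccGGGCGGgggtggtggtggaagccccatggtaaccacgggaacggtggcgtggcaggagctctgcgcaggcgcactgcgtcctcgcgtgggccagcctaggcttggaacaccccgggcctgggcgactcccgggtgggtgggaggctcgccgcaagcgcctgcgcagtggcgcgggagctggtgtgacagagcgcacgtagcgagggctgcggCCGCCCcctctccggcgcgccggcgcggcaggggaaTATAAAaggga
Ylpm1, chr12:84996071-84996370, plus strand: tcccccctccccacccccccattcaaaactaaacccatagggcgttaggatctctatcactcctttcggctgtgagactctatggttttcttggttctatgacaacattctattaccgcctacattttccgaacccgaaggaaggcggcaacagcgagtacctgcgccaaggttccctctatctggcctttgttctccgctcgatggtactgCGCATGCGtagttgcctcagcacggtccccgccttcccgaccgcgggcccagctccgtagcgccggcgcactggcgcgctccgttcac

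RefSeq held a promoter for 9 of the 10 genes. The promoter of Cyp4f18 had 3 CpG dinucleotides in 300 bases, and those of the other 8 genes had 16 to 32, against a median of 7.0 over 32851 promoters. GGGCGG was present in 6 of the 9 promoters and in 35.7% of all promoters, with 5 matches each in those of Acss2 and Ankrd50. CCAAT was present in 6 of 9 and in 37.4% of all, CGGAAG in 2 (Acss2 and Fam32a, 16.9% of all) and TGACGT in 1 (Creb3l2, 7.51% of all). TATAAA was present only in the promoter of P4ha1, downstream of its start (13.6% of all promoters), and GCATGCG only in that of Ylpm1, as a pair of overlapping matches (3.58% of all). These matches are descriptions of the letters and not measured binding sites.

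The genes were read in fits across all 12520 genes that reached an adjusted TPM of 1 in at least 3 libraries, and all 10 genes were among them. Sequencing depth is unknown. Totals of adjusted TPM ran from 561020 to 1453940, and Pearson's r between replicates was 0.985 to 0.992 (over genes, not independent points). The sum of 5 B cell markers was 2610 to 2972 in B cells and 0.900 to 5.34 in T cells, and that of 5 T cell markers was 1017 to 1194 in T cells and 9.76 to 14.1 in B cells. The T cell libraries numbered 6 of both sexes stood together in several genes below, and results that rest on them are given with and without them. In such bulk samples, fewer cells of a type and less RNA per cell cannot be told apart.

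B and T cells were compared to ask how strongly each gene depends on the cell type in which the element sits. Of the 10 genes, 8 differed between B and T cells at an adjusted p under 0.05 in limma, the linear model used here, and 73% of all genes tested did. When each library was rescaled to a total of 1000000, the same 8 genes passed and 54.6% of all genes did, so the background depends on the scaling. Cyp4f18, Diap3, Ylpm1 and Creb3l2 were higher in B cells (4 genes, against 31.4% of all genes tested), and Acss2, P4ha1, Arhgap31 and Ankrd50 were higher in T cells (4 genes, against 41.6%). Under that rescaling the directions of the 8 genes held, while the shares of all genes were 39.1% higher in B and 15.5% higher in T cells. Fam32a and Ano6 did not pass. A log2 difference of at least 1 was found for 5 of the 10 genes and for 21.6% of all genes. With a pseudocount of 0.1 these were 6 genes, Diap3 being added, and 27.2% of all genes, and under the rescaling Diap3 took the place of Ankrd50 (5 genes, 22.8% of all genes). For 7 of the 10 genes the range of the 6 B cell libraries lay apart from that of the 6 T cell libraries, against 53.9% of all genes. Cyp4f18, Diap3 and Creb3l2 passed the filter on low values only through their B cell values. Their calls and separate ranges thus follow in part from the filter. Log2 differences below are of adjusted TPM + 1, B minus T, which understates the difference of low genes.

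**Figure D1:**
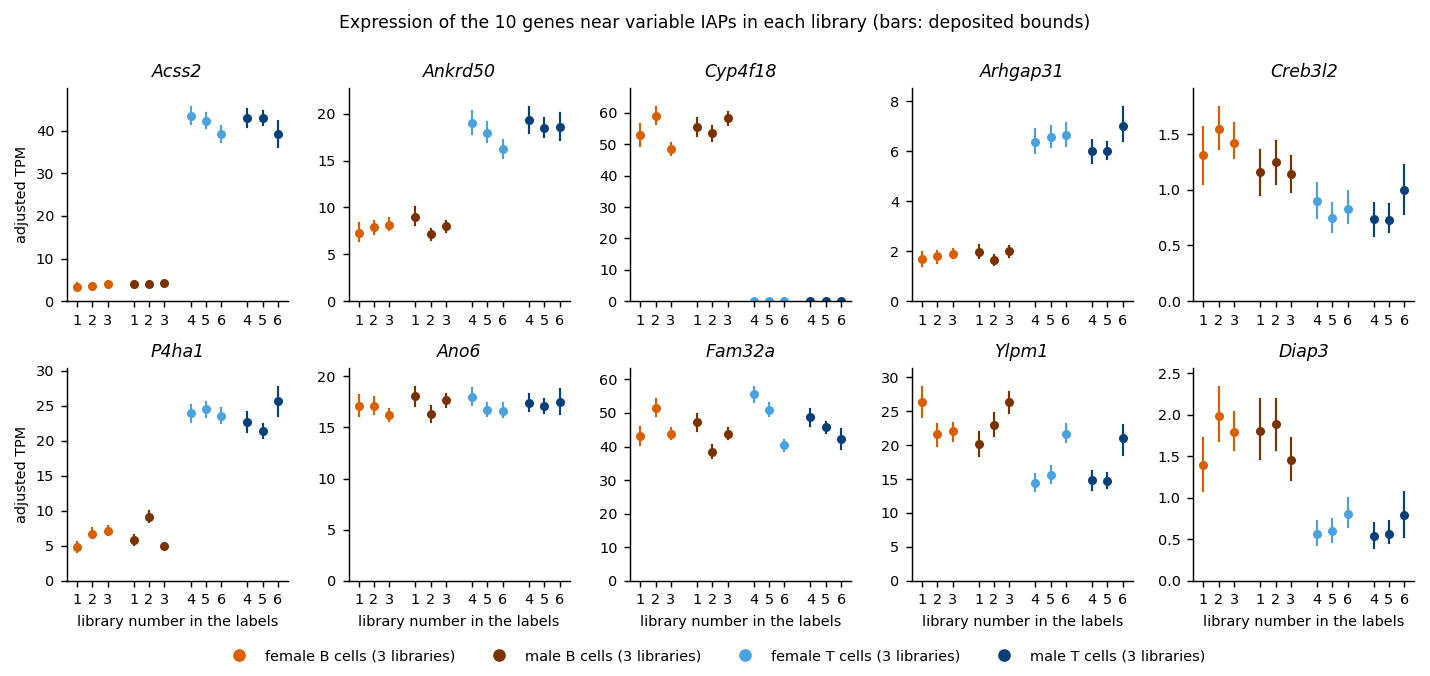
Adjusted TPM (vertical axis, linear and from 0) of each of the 10 genes in each of the 12 libraries (horizontal axis, by the library number in the labels). Points are the deposited values, vertical bars the deposited bounds, and colours the 4 groups of 3 libraries; Cyp4f18 was at 48.4 to 58.96 in B cells and under 0.1 in T cells, Acss2 was at 3.44 to 4.23 and 39.1 to 43.4, and Ano6 was at the same level in both.

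Cyp4f18 (chromosome 8, 71988482 to 72009626, minus strand) encodes a cytochrome P450 that hydroxylates leukotriene B4 and is best known from neutrophils. Female B cells had adjusted TPM values of 53.0, 58.96 and 48.4, and male B cells had 55.5, 53.5 and 58.4. In female T cells the values were 0.0363, 0.0314 and 0.0675, and in male T cells they were 0.0126, 0.0141 and 0.00989. Every B cell library was thus far above every T cell library, with a log2 difference of 5.75 (SE 0.06, adjusted p = 1.7e-16 in limma), and T cell values had bounds from 0.000654 to 0.146. With a pseudocount of 0.1 the difference was 8.75. Since the gene is known from neutrophils, their markers were summed beside it. The 12 neutrophil markers (S100a8, S100a9, Ngp and others) reached 0.581 to 2.68 in all in B cells and 0.158 to 3.01 in T cells. None of the 12 passed the filter on low values. Their means were higher in B cells for all but Retnlg (0.02095 in B and 0.02698 in T cells). Among them Csf3r had 0.160 in B and 0.00452 in T cells, and Mmp9 had 0.114 and 0.0125. Ly6g was at 0.00135 ± 0.000874 in B cells and 0.001225 ± 0.00087 in T cells (SD, n = 6 each). Their part in the level of Cyp4f18 was not tested. The nearest tested protein-coding genes, Zfp961 and Tpm4, were also higher in B cells, with log2 differences of 0.72 and 0.74. Zfp961 lies on the other strand and overlaps the 3′ end of Cyp4f18, and although the library kit keeps the strand, whether the counting used it is not stated.

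Other genes of leukotriene B4 handling moved in both directions. Of 10 genes listed, 4 were tested, of which 1 was higher in B cells, 2 were higher in T cells and 1 did not pass; the counts under rescaling of each library to a total of 1000000 were 2, 1 and 2 of 5. Lta4h, the hydrolase that makes leukotriene B4, was at 24.2 ± 1.58 in B cells against 58.3 ± 5.09 in T cells (SD, n = 6 each), a log2 difference of -1.23. Alox5ap, which presents arachidonic acid to 5-lipoxygenase, had 2.40 ± 0.493 in B cells and 0.192 ± 0.106 in T cells (SD, n = 6 each); it is named after its values were seen. Alox5 itself was under the filter on low values. Among the other P450 enzymes of the family, Cyp4f13 had a log2 difference of -0.22 (adjusted p = 0.047 in limma), and its sign turned under that rescaling (0.12, adjusted p = 0.61).

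Acss2 (chromosome 2, 155517948 to 155585724, plus strand) encodes the acetyl-CoA synthetase of cytosol and nucleus, which makes acetyl-CoA from acetate for lipid synthesis and histone acetylation, and its element lay in an intron. Values in female B cells were 3.44, 3.52 and 4.13 and in male B cells 4.09, 4.02 and 4.23. Female T cells had 43.4, 42.3 and 39.1, and male T cells had 42.8, 42.9 and 39.2. All T cell libraries were above all B cell libraries, the mean level was 10.7-fold higher, and the log2 difference was -3.12 (SE 0.06, adjusted p = 2.4e-14 in limma). Both T cell libraries numbered 6 were the lowest T cell libraries, and without them the difference was -3.16. Ggt7 starts 289 bases from Acss2 on the opposite strand and overlaps its start, and it was likewise higher in T cells, with 0.109 ± 0.0279 in B cells and 1.15 ± 0.258 in T cells (SD, n = 6 each) and a log2 difference of -0.95. Gss, also on the opposite strand, overlaps the 3′ end of Acss2 and had a mean of 3.17 in B and 4.87 in T cells, close to the level of Acss2 in B cells. Ncoa6, the nearest tested gene on the other side, was higher in B cells, with a log2 difference of 0.37.

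Among 10 other genes of acetyl-CoA and fatty acid synthesis, 8 were tested, and 4 of these were higher in B cells and 4 in T cells; under rescaling to a total of 1000000, 4 were higher in B cells and none in T cells (0 of 8). Acss1, the mitochondrial acetyl-CoA synthetase, went the other way from Acss2, with 37.0 ± 3.10 in B cells and 17.9 ± 0.982 in T cells (SD, n = 6 each) and a log2 difference of 1.01. Srebf2, a transcription factor of sterol synthesis, had a log2 difference of 0.49. Acat2, the cytosolic thiolase, had -0.43 (adjusted p = 0.0004 in limma), which did not pass under that rescaling (adjusted p = 0.73).

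P4ha1 (chromosome 10, 59323296 to 59373304, plus strand) encodes the catalytic subunit of collagen prolyl 4-hydroxylase, an enzyme of the endoplasmic reticulum. The T cell libraries were close to each other, at 23.9, 24.5 and 23.6 in females and 22.7, 21.5 and 25.7 in males. The B cell libraries were lower and less even, at 4.77, 6.73 and 7.14 in females and 5.83, 9.16 and 4.93 in males. The cell types did not overlap, and the log2 difference was -1.76 (SE 0.12, adjusted p = 3.9e-08 in limma). Of the nearest tested genes, Sowahc was higher in B cells (log2 difference 1.03) and Gm10273 higher in T cells (-0.35). Under rescaling to a total of 1000000 Gm10273 had -0.17 and did not pass (adjusted p = 0.32 in limma). Of the pathway of P4ha1, 6 of 10 genes were tested, 2 higher in B and 4 higher in T cells, and 2 and 2 under rescaling to a total of 1000000. P4hb, the partner subunit of the enzyme, differed by -0.20 (adjusted p = 0.024 in limma) and by 0.18 under that rescaling (adjusted p = 0.45), and Ppib, a prolyl isomerase of the same compartment, differed by -0.48. Ppib did not pass under that rescaling either (-0.10, adjusted p = 0.72 in limma). The other catalytic subunits P4ha2 and P4ha3 were under the filter, at 0.266 or less on average in both cell types.

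Arhgap31 (chromosome 16, 38598340 to 38713274, minus strand) encodes a GTPase-activating protein for Cdc42 and Rac1. It was at 1.65 to 1.99 in the 6 B cell libraries and at 5.99 to 6.995 in the 6 T cell libraries, with a log2 difference of -1.39 (SE 0.06, adjusted p = 2.5e-10 in limma). Its flanking genes Tmem39a and Zbtb20 did not pass, with adjusted p of 0.88 and 0.97 in limma. Of 10 related genes, 8 were tested, 3 of them higher in B and 2 in T cells, or 3 and 1 under rescaling to a total of 1000000. Arhgap17 had 32.7 ± 2.44 in B and 3.62 ± 0.341 in T cells (SD, n = 6 each), a log2 difference of 2.87 in the other direction, and Arhgap15 and Arhgap25 had -0.91 and 0.84. The substrate Cdc42 did not pass (log2 difference -0.09, adjusted p = 0.39 in limma).

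Ankrd50 (chromosome 3, 38449259 to 38484844, minus strand) encodes an ankyrin repeat protein that works with the retromer and SNX27 in returning membrane proteins from endosomes to the cell surface. It was at 7.14 to 8.997 in B cells and at 16.2 to 19.3 in T cells, without overlap, and the log2 difference was -1.11 (SE 0.06, adjusted p = 3.5e-09 in limma), or -0.77 under rescaling of each library to a total of 1000000. Of 11 retromer and WASH complex genes, 2 were higher in B cells, 4 were higher in T cells and 5 did not pass, and under that rescaling 4 were higher in B cells and 2 in T cells. Vps26b, a retromer subunit, was at 1.01 ± 0.152 in B and 20.7 ± 1.25 in T cells (SD, n = 6 each), a log2 difference of -3.44, while its paralog Vps26a did not pass (0.08, adjusted p = 0.25 in limma). Washc3 had -1.49 and Ankrd27 -0.43, of which Ankrd27 did not pass under that rescaling (-0.07, adjusted p = 0.76 in limma). Of the nearest tested genes, both more than 1000000 bases away, Nudt6 was higher in T cells (-0.61) and Hspa4l did not pass (0.20, adjusted p = 0.15 in limma). Under that rescaling Nudt6 did not pass (-0.30, adjusted p = 0.16 in limma), while Hspa4l did (0.55, adjusted p = 0.0088 in limma).

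Diap3 (Diaph3 in GENCODE M21, chromosome 14, 86655367 to 87141235, minus strand) encodes a formin that builds straight actin filaments and takes part in cytokinesis. Its level was low. B cells had 1.39, 1.98 and 1.79 in females and 1.81, 1.89 and 1.46 in males, and T cells had 0.568, 0.598 and 0.801 in females and 0.543, 0.569 and 0.788 in males. All B cell libraries were above all T cell libraries, with a log2 difference of 0.72 (SE 0.08, adjusted p = 3e-06 in limma). It was 1.29 with a pseudocount of 0.1, 1.0 under rescaling to a total of 1000000 and 0.79 without both T cell libraries numbered 6. Within each cell type the deviations of Diap3 from its group means had r = 0.92 with those of a list of 10 cell cycle genes (Mki67, Top2a and others) over 6 libraries, a description in which the points share libraries. The female B cell library 1 and the male B cell library 3 were the lowest of B cells in Diap3 and also in the list, whose summed level was 45.0 and 35.8 there and 59.8 to 76.3 in the other B cell libraries. Both T cell libraries numbered 6 were the highest of T cells in both, with sums of 8.48 and 7.67 against 5.42 to 5.83. All 10 cell cycle genes were higher in B cells, against 31.4% of all genes tested. All but Top2a were under 1 in every T cell library and passed the filter only through their B cell values. The count thus follows in part from the filter. The part of the cell cycle genes in the difference of Diap3 was not tested. The flanking genes Sugt1 and Tdrd3 were both higher in T cells, with log2 differences of -0.81 and -0.54. Under rescaling to a total of 1000000 Tdrd3 had -0.20 and did not pass (adjusted p = 0.40 in limma). Of 12 formins and actin nucleators, 5 were higher in B and 3 in T cells (5 and 1 under rescaling to a total of 1000000); Fmnl3 had a log2 difference of 0.91, and Diaph1 and Fmnl1 had 0.26 each.

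Ylpm1 (chromosome 12, 84996321 to 85070515, plus strand) encodes a nuclear protein that binds protein phosphatase 1, and its element lay in an intron. Female B cells had 26.4, 21.6 and 22.0, and male B cells had 20.1, 23 and 26.4. T cells were lower at 14.4 and 15.7 in females and 14.8 and 14.8 in males, but both libraries numbered 6 stood apart at 21.7 and 21.02, within the range of B cells. With all libraries the log2 difference was 0.44 (SE 0.12, adjusted p = 0.0047 in limma), and without both T cell libraries numbered 6 it was 0.60 (adjusted p = 9.8e-05). Under rescaling to a total of 1000000 it was 0.81. The deposited bounds of each library numbered 6 (20.5 to 23.2 in females, 18.6 to 22.9 in males) did not meet those of the other T cell libraries of its sex. The summed B cell markers were 5.34 and 2.61 in these libraries and at most 2.00 in the other T cell libraries, against at least 2610 in B cells. The monocyte and macrophage markers summed to 9.29 in the female and 3.00 in the male library numbered 6, against 1.2 to 1.79 in the other T cell libraries; their part in the level of Ylpm1 was not tested. Arel1, upstream, had a log2 difference of 0.49 close to that of Ylpm1, and Dlst, on the other side, had -0.19. Under rescaling to a total of 1000000 Dlst had 0.18 and did not pass (adjusted p = 0.44 in limma). None of the 8 partners of protein phosphatase 1 and of nuclear scaffolds was higher in B cells and 6 were higher in T cells. With a total of 1000000, 1 was higher in B cells and none in T cells (0 of 8). Ppp1r10, Ppp1cb and Ppp1ca had -0.52, -0.38 and -0.35. None of them passed under that rescaling (-0.15, -0.01 and 0.03, adjusted p = 0.53, 0.98 and 0.92 in limma).

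Creb3l2 (chromosome 6, 37327255 to 37442146, minus strand) encodes a transcription factor that is held in the membrane of the endoplasmic reticulum and released by cleavage. It was near the filter, at 1.31, 1.54 and 1.42 in female and 1.16, 1.25 and 1.15 in male B cells, and at 0.902, 0.751 and 0.829 in female and 0.736, 0.726 and 1.00 in male T cells. The cell types did not overlap (log2 difference 0.34, SE 0.06, adjusted p = 0.00033 in limma). The difference was 0.60 with a pseudocount of 0.1 and 0.58 under rescaling to a total of 1000000. Mtpn and Trim24, its nearest tested neighbours, were also higher in B cells (0.87 and 0.31). Of 12 related genes, 9 were tested, 4 higher in B and 3 in T cells, and 5 and 1 under rescaling to a total of 1000000. Atf6, a sensor of misfolded proteins released in the same way, had 26.2 ± 1.51 in B and 2.23 ± 0.262 in T cells (SD, n = 6 each), a log2 difference of 3.08. Xbp1 had 0.87, and Creb3 had -0.49, which did not pass under that rescaling (adjusted p = 0.62).

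Ano6 (chromosome 15, 95790843 to 95974751, plus strand), a calcium-activated ion channel and phospholipid scramblase, had nearly the same level in B and T cells. B cells had 17.1, 17.1 and 16.2 in females and 18.1, 16.3 and 17.7 in males, and T cells had 18.02, 16.7 and 16.7 in females and 17.4, 17.1 and 17.5 in males. The cell types overlapped, and the log2 difference of -0.01 (SE 0.05, adjusted p = 0.79 in limma) became 0.09 (adjusted p = 0.064) under median-ratio scaling and 0.35 (adjusted p = 0.11) under rescaling to a total of 1000000. Neither Twf1 nor Arid2 beside it passed (adjusted p of 0.38 and 0.85 in limma). Of 12 other anoctamins and scrambling genes, 8 were tested, with 1 higher in B and 5 in T cells, or 1 and 1 under rescaling to a total of 1000000. Tmem30a, a subunit of phospholipid flippases, had a log2 difference of -0.20, which had the other sign under that rescaling (0.18, adjusted p = 0.45).

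Fam32a (chromosome 8, 72219730 to 72224418, plus strand) encodes a small nuclear protein found in the catalytic spliceosome. It had 43.1, 51.6 and 43.7 in female and 47.4, 38.4 and 43.7 in male B cells, and 55.7, 50.96 and 40.4 in female and 48.8, 45.7 and 42.1 in male T cells. The groups overlapped widely, and the log2 difference was -0.08 (SE 0.09, adjusted p = 0.43 in limma), or 0.03 and 0.30 under the other scalings, neither past the threshold. Without both T cell libraries numbered 6, which were the lowest of their sex, it was -0.17 (adjusted p = 0.066 in limma). Its neighbours Hsh2d and Ap1m1, with starts 30092 and 20288 bases away, were both higher in B cells with log2 differences of 0.72. Of 11 spliceosome genes, none was higher in B cells (0 of 11), 5 were higher in T cells and 6 did not pass, and under rescaling to a total of 1000000 2 were higher in B cells and 1 in T cells. Aqr, a helicase of the spliceosome, had 34.9 ± 2.19 in B and 62.1 ± 2.80 in T cells (SD, n = 6 each), a log2 difference of -0.81, and Prpf18 and Syf2 had -0.29 and -0.26, both with the other sign under that rescaling (0.08 and 0.11).

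**Figure D2:**
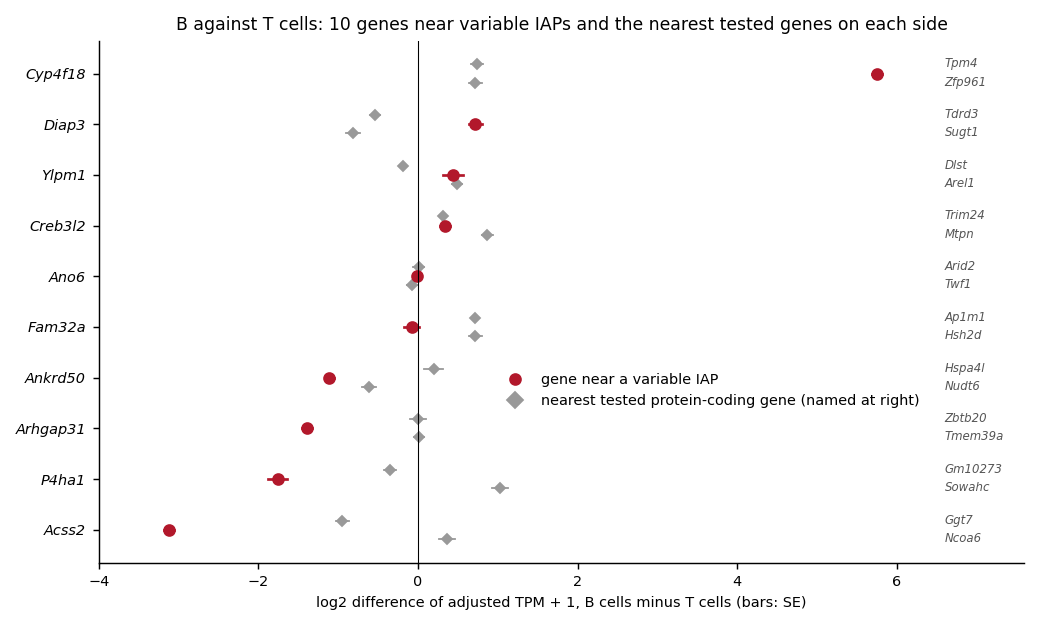
Log2 difference of adjusted TPM + 1 between B and T cells (horizontal axis; positive is higher in B cells) for the 10 genes (red circles) and for the nearest tested protein-coding genes on both sides (grey diamonds, named at the right); bars are the standard error. The 10 genes run from -3.12 to 5.75, and 1 of the 20 flanking genes, Sowahc, exceeds 1 in size at the deposited scale (6 do under rescaling to a total of 1000000).

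Of the 20 flanking genes, 9 were higher in B cells, 6 were higher in T cells and 5 did not pass, and under rescaling to a total of 1000000 10 were higher in B cells and 2 in T cells. Over all genes tested, 31.4% were higher in B and 41.6% in T cells, or 39.1% and 15.5% under that rescaling. A log2 difference of 1 or more was found for 1 of the flanking genes as deposited and for 6 under that rescaling, against 21.6% and 22.8% of all genes. The nearest tested gene lay from 289 to 7553544 bases away, so it is not always the neighbour on the chromosome.

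**Figure D3:**
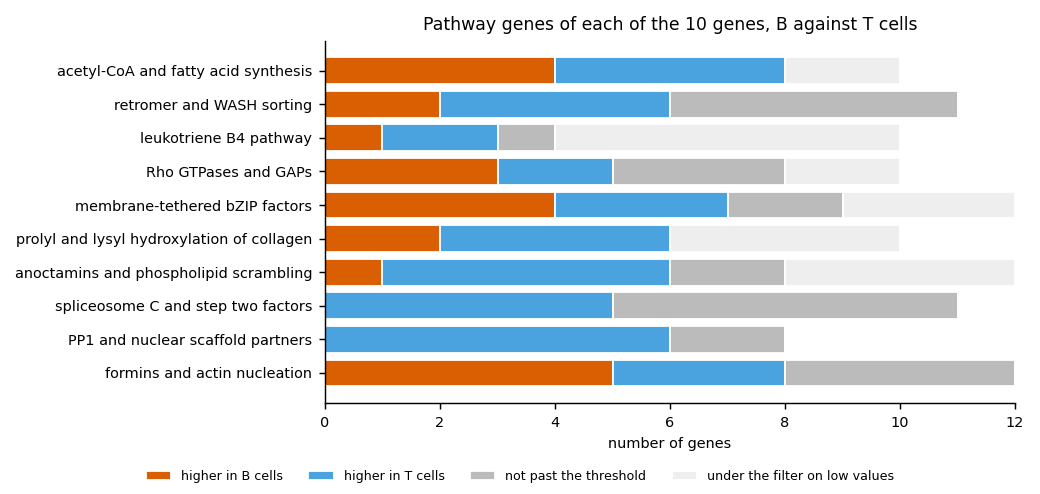
Number of genes (horizontal axis) in each list of pathway genes that belongs to 1 of the 10 genes (vertical axis), coloured by whether they were higher in B cells, higher in T cells, not past the threshold or under the filter on low values. The spliceosome and protein phosphatase 1 lists hold none higher in B cells, and the formin list holds 5.

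The next comparison set the sexes against each other in B cells and in T cells. None of the 10 genes differed between the sexes in B cells (0 at an adjusted p under 0.05 and 0 at an unadjusted p under 0.05 in limma), where 0.144% and 2.98% of all genes did. None differed in T cells either (0 and 0), where 0.104% and 2.55% of all genes did. In a fit of the T cell libraries alone, 10 genes of the whole table passed, and with the library number as a replicate block 5 did, with 0 of the 10 genes in either. The sex effect did not differ between B and T cells for any of the 10 (0 adjusted and 0 unadjusted, against 0% and 2.36% of all genes in limma). The largest differences were small. Creb3l2 was higher in all 3 female than in all 3 male B cell libraries, as were 7.2% of genes that did not overlap in either direction, with a log2 difference of 0.15 (SE 0.09, unadjusted p = 0.11 in limma). Cyp4f18 did not overlap between female and male T cells (8.49% of all genes), at values near the lower limit of the table, with a log2 difference of 0.05 (SE 0.08, unadjusted p = 0.58 in limma).

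The spread between libraries of a group was described next, since the elements were selected on variation between mice. On the log2(adjusted TPM + 1) scale, the within-group SD pooled over the 4 groups had a median of 0.0902 over the 10 genes, and 3 of the 10 were above the median of all genes tested, which was 0.135. It was 0.309 over 7 tested genes for which the study names a transcript that starts or ends in a VM-IAP (2610035D17Rik, Bmf, Eps8l1, Gm15800, Mbnl1, Rnf157 and Slc15a2) and 0.145 over the 25 other tested genes of the list. For these 25 the study also names no such transcript, and 15 of them were above the median of all genes tested. Both sets were formed with these libraries in view, so the values are descriptions. Ano6 had the lowest SD of the 10, 0.054, above 1.94% of the genes within 0.5 of its mean log2 level. Under rescaling to a total of 1000000 it had 0.26, and Creb3l2 (0.169), Cyp4f18 (0.192), Arhgap31 (0.225) and Diap3 (0.24) were lower. As deposited, Creb3l2, Cyp4f18, Acss2, Arhgap31 and Ankrd50 had 0.0774 to 0.0999, and Diap3 had 0.130.

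**Figure D4:**
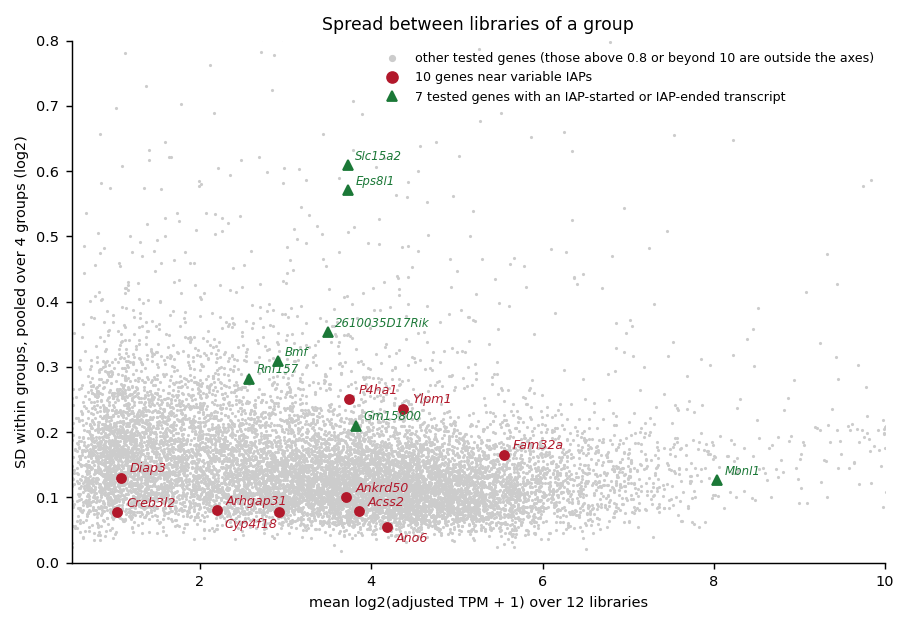
SD within groups, pooled over the 4 groups (vertical axis, log2 scale), against the mean log2(adjusted TPM + 1) over 12 libraries (horizontal axis), for all tested genes (grey), the 10 genes (red) and 7 genes with an IAP-started or IAP-ended transcript (green). P4ha1 at 0.250 and Ylpm1 at 0.236 are the highest of the 10 at the deposited scale, and Slc15a2 at 0.609 is the highest of the 7.

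At the deposited scale, P4ha1, Ylpm1 and Fam32a were the 3 genes above the median. P4ha1 had an SD of 0.250, above 94.5% of genes of similar level, and its spread lay in B cells, where the SD was 0.342 against 0.0919 in T cells. The male B cell library 2 was highest at 9.16 and the female B cell library 1 lowest at 4.77, a ratio of 1.92. Without male B cell library 2 the SD over all groups was 0.168. Ylpm1 had an SD of 0.236, above 94.5% of genes of similar level, and its spread was larger in T cells (0.286) than in B cells (0.171). Without both T cell libraries numbered 6 it was 0.143. Fam32a had 0.165, above 80.4% of genes of similar level, and 0.127 without both T cell libraries numbered 6. Under rescaling to a total of 1000000 P4ha1 (0.419), Fam32a (0.336), Acss2 (0.33) and Ankrd50 (0.3) were above the median of all genes (0.296). Ylpm1 (0.283) was then below it. With a pseudocount of 0.1, Diap3 had 0.232 and also lay above the median, which was 0.159.

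The deposited bounds give another view of the same spread. Among pairs of libraries of a group, 28 of 120 pairs over the 10 genes (23.3%) had bounds that did not meet, against 25.5% of pairs over all genes tested and 61.9% (52 of 84) over the 7 genes with a transcript from a VM-IAP. Over the 25 other tested genes of the list, 35.7% of pairs (107 of 300) had such bounds. Fam32a and Ylpm1 had 8 of 12 such pairs each, and P4ha1 had 5, 4 of them in B cells. Ano6, Creb3l2 and Diap3 had none (0 of 12 each). For P4ha1 the bounds of male B cell library 2 were 8.38 to 9.99, above those of the other male B cell libraries, 5.16 to 6.56 and 4.53 to 5.41.

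The libraries that stood out were not the same for each gene. Ylpm1 was high in both T cell libraries numbered 6 (0.33 and 0.32 above the group mean on the log2 scale), where Fam32a was low (-0.26 and -0.11), and Diap3 was 0.12 and 0.13 above. P4ha1 was near its group mean in the female library numbered 6 (-0.02) and above it in the male one (0.14). In B cells P4ha1 was lowest in the female library 1 and the male library 3 (-0.31 and -0.33), in which Ylpm1 was highest (0.18 and 0.19) and Diap3 lowest (-0.18 and -0.14). These libraries also had the lowest mean of the 10 cell cycle genes (-0.40 and -0.47), whose part in the spread of P4ha1 and Ylpm1 was not tested. In female B cell library 1 and male T cell library 6 a single gene took 32.2% and 37.4% of the total. Protein-coding genes took 42.7% and 38.5% there. In the other libraries the largest gene took 11.4% to 17.8%, with 13.7% in male B cell library 3 and 11.4% in female T cell library 6. The part of this composition in the spread was not tested.

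**Figure D5:**
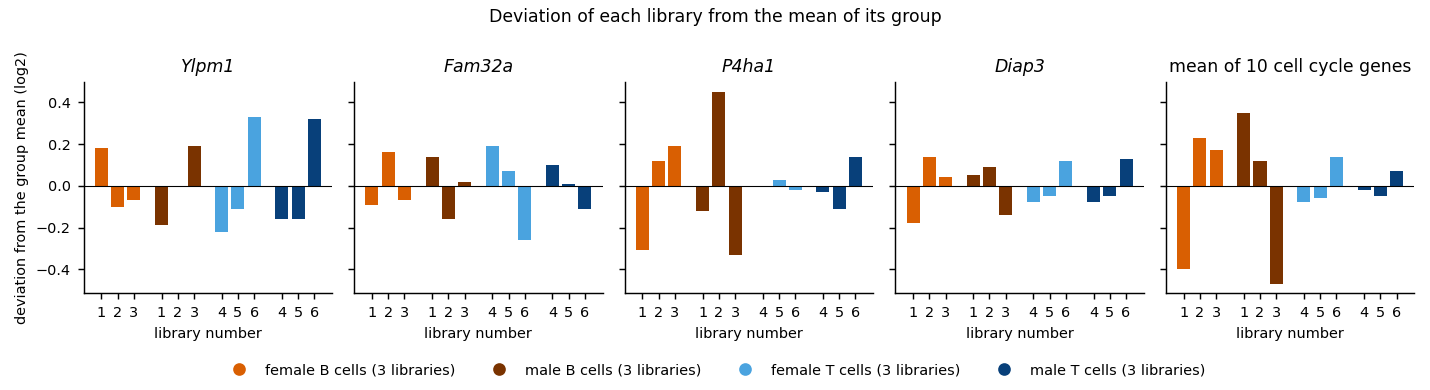
Deviation of each library from the mean of its group on the log2(adjusted TPM + 1) scale (vertical axis) for Ylpm1, Fam32a, P4ha1, Diap3 and the mean of 10 cell cycle genes, by library number (horizontal axis) and group (colours). Both T cell libraries numbered 6 are high for Ylpm1 (0.33 and 0.32) and low for Fam32a (-0.26 and -0.11), and P4ha1 is highest in male B cell library 2 (0.45).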

How the data were processed

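RNA from resting B and naive T cells was depleted of ribosomal RNA, made into stranded libraries and sequenced. The notes name Trim Galore, FastQC, STAR and mm10, and the quantifier, the adjustment and the level of the bounds are not given in the sources used here. The authors deposited a signal named adjusted TPM with 2 bounds for each library. Read counts were not analysed and depth is unknown, so precision was read from the bounds. Some labels call the material genomic DNA, and the values were treated as RNA.

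Genes at 1 or more in at least 3 libraries were fitted with limma 3.58.1 (R 4.3.3) on log2(adjusted TPM + 1), with 1 coefficient per group, a variance trend and Benjamini-Hochberg adjustment over 12520 genes. Other steps used Python 3.11.15, numpy 2.4.6, pandas 2.3.3 and matplotlib 3.10.9. The fit was tested on simulated data. By identifier, 40254 of 41128 genes matched GENCODE M21. The 10 genes and all lists were chosen with earlier results of these data known. Other named genes are, for each list, up to 3 of the largest differences past the threshold at an adjusted TPM of 10 or more, the nearest tested protein-coding gene on each side, and the 2 genes of highest correlation, which for Ano6 are not reported here. Alox5ap, Alox5, P4ha2, P4ha3, Cdc42, Vps26a, Gss and the single neutrophil and natural killer cell genes fall outside this rule and were named after their values were seen. Same-numbered T cell libraries deviated together (r of 0.72, 0.55 and 0.52), which pairs them; nothing in the labels says what a number marks, and B cell numbers did not pair (-0.17, -0.04 and -0.34). Nothing names single animals, so p-values measure the spread between pools. The fit of B against T cells treated all libraries as independent and had no block. Where same-numbered T cell libraries deviate together, its SEs and p-values can be too small.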

Additional observations from a re-analysis of the deposited data

How the results depend on the processing

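The 10 genes kept their 8 calls between B and T cells and their 0 calls between the sexes under every alternative run, which were a pseudocount of 0.1, no filter, median-ratio scaling, a total of 1000000, no variance trend, each library left out and, chosen after seeing the data, both T cell libraries numbered 6 left out. The 0 calls between the sexes also held with the block, which was not run for B against T cells. The median log2 difference of all genes between B and T cells was -0.09 as deposited and 0.26 with a total of 1000000, so the signs of Ano6 and Fam32a turned. Over all genes, removing the filter gave 24591 calls between the cell types, 10985 for the sexes in B cells, 10607 for those in T cells, and 11201 where the sex effects were compared. A total of 1000000 gave 44 calls for the sexes in B cells, 26 in T cells and 20 where the sex effects were compared. The median SD of the 10 genes was then 0.272 (0.296 over all genes). The sexes in T cells gave 24 calls with a pseudocount of 0.1, and the difference between sex effects gave 1; that difference gave 3 with no variance trend and 3 without both T cell libraries numbered 6. With the B cell libraries alone, 5 genes were called with and 5 without the replicate block, and with the T cell libraries alone 5 with the block and 10 without; the block changed no other call. Leaving out 1 library gave 8717 to 9193 calls between the cell types, 12 to 18 and 9 to 14 for the sexes, 0 to 3 for the difference between sex effects (3 without female T cell 6) and a median SD of 0.0832 to 0.0963. The SD of Cyp4f18 fell from 0.0774 to 0.0499 without female B cell 2. Low values limit Cyp4f18 in T cells, Creb3l2 and Diap3.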

Other observations

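The genes whose levels were most like 9 of the 10 over the 12 libraries were listed by Pearson's r of log2(adjusted TPM + 1), as a description. The 12 points share libraries and fall into the cell types as 6 and 6, so a high r mostly restates the difference between B and T cells. For Cyp4f18 they were Pax5, the B cell identity factor (0.9999), and Gm19980 (0.9998). For Acss2 they were Dok2 (0.9998) and Iqgap2 (0.9992), for Ankrd50 Cdca7l (0.9978) and Slc39a11 (0.9977), for Arhgap31 Cd101 (0.9982) and Ipcef1 (0.9981), for P4ha1 Slfn3 (0.9905) and Fas (0.99), and for Creb3l2 H2-Q6 (0.9605) and Samhd1 (0.9579). Diap3 was most like Hist1h3c (0.9926), a histone gene of the dividing cell, and Mki67 (0.9918), the proliferation marker, which is in the cell cycle list. Ylpm1 was most like Rbbp6 (0.9686) and Atf7ip (0.9606), whose mean levels were 50.01 and 64.5 for B against 38.3 and 43.6 for T cells. Fam32a was most like Aim1 (0.8929) and Rpp25l (0.8843).

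Of the other marker lists, 3 of 3 tested platelet genes and 3 of 3 tested monocyte and macrophage genes were higher in B cells. Their sums were 4.76 to 17.8 and 12.9 to 16.96 in B cells, and 0.421 to 0.643 and 1.2 to 9.29 in T cells. Of the dendritic cell genes, 4 of 5 were higher in B cells, with sums of 4.93 to 12.4 there and 1.875 to 3.345 in T cells. Most of these genes passed the filter only through their B cell values, so these counts follow in part from the filter. Of the erythroid genes, 1 of 4 tested was higher in B cells, with sums of 4.22 to 346.3 in B cells and 3.46 to 77.6 in T cells. The natural killer cell genes summed to 1.21 to 2.12 in B and 11.6 to 17.6 in T cells, and most of this was Prf1, perforin (1.18 ± 0.194 in B and 15.1 ± 2.25 in T cells, SD, n = 6 each), the 1 gene tested, which was higher in T cells. Under the filter, Ncr1, Klrb1c and Klre1 had means of 0.204, 0.170 and 0.0571 in B against 0.00742, 0.0164 and 0.0162 in T cells. Gzmb, also under the filter, went the other way, with 0.0517 in B and 0.0859 in T cells.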
